A study of Mus musculus with 22 samples.

Results

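CTCF peaks that lay at protein-coding promoters and were listed both before and after induction of erythroid differentiation were examined in mouse G1ER (G1E-ER4) cells. Members were selected on their CTCF peak calls. A peak of the 0 h list was kept when it overlapped a peak of the 24 h list by at least 1 bp and held, or lay within 1 kb of, a transcription start site (TSS) of a GENCODE protein-coding transcript (mm10). Of 33193 CTCF peaks at 0 h, 30582 overlapped one of the 41473 peaks at 24 h, and 3624 of these shared peaks were at promoters. The other 26958 shared peaks lay away from promoters and served as the comparison for the peaks themselves. For the comparison of promoters, 1 TSS was taken for each of 21853 protein-coding genes. By this count 3055 genes had a shared CTCF peak within 1 kb, 17451 had no CTCF peak of either list, 1191 had CTCF at 24 h only, and 152 at 0 h only.

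G1ER is a subclone of the Gata1-null erythroid line G1E that constitutively expresses GATA1-ER, a fusion of GATA1 with the hormone-binding part of the estrogen receptor. All groups, the 0 h controls included, carried this fusion and grew with SCF and EPO. β-estradiol activates the fusion and starts erythroid maturation, and was given for 0, 2, 6, 12, or 24 h. H3K4me3 and H3K27ac were profiled at each time with 2 replicates, and CTCF at 0 h and 24 h with 1 list each. The CTCF comparison between times therefore had no replicate check. A single subclone was used, so clone and genotype cannot be told apart.

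CTCF is a zinc finger protein that binds a long, directional DNA motif, blocks enhancers from acting across it, and stops the cohesin ring as it extrudes chromatin loops. Loops form mostly between CTCF sites whose motifs point toward each other, so the strand of the motif at a promoter matters. At promoters CTCF can bring the gene to a loop anchor. H3K4me3 marks the nucleosomes that flank the start of active or poised genes, and H3K27ac is found at promoters and enhancers in use.

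The sequences below show CTCF sites at members of high rank, chosen for an exact match to the motif. They are the first 8 members, ranked by their mean within-list score percentile at 0 h and 24 h, that held a single match to the CTCF core consensus, the conserved 12-base middle of the motif, with no annotated exon in the window. Each is 100 bases of the mm10 assembly read on the strand of the match, with the core in capitals.
Gm45844: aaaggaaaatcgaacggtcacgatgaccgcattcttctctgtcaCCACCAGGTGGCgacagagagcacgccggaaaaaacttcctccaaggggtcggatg
Ccdc88c: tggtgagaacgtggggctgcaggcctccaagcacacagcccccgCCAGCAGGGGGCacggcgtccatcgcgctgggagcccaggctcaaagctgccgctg
Cln6: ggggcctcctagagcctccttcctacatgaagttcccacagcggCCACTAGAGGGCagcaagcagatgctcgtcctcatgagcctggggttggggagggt
Top1mt: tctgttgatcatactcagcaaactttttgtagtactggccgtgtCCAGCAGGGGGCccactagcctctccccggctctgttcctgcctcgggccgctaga
Twf2: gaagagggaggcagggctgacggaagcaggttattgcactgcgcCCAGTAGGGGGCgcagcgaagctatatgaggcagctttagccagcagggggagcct
Ccdc110: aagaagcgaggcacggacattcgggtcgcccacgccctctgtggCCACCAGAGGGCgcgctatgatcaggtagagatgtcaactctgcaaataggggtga
Srrm3: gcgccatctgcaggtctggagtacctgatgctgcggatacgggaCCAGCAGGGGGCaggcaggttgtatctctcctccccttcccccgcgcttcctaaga
Nabp2: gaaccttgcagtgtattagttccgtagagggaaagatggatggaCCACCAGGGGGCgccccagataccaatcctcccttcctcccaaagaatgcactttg

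The windows lie at chr7:7278462-7278561 (minus strand) for Gm45844, chr12:101029358-101029457 (minus) for Ccdc88c, chr9:62847839-62847938 (plus) for Cln6, chr15:75679417-75679516 (minus) for Top1mt, chr9:106212087-106212186 (minus) for Twf2, chr8:45934907-45935006 (minus) for Ccdc110, chr5:135806712-135806811 (minus) for Srrm3, and chr10:128409978-128410077 (plus) for Nabp2. The core and the gene lay on the same strand at Gm45844, Ccdc88c, Cln6, and Top1mt, and on opposite strands at the other 4. Counted from the TSS along transcription, the core lay at -279 bp at Gm45844, -351 bp at Ccdc88c, -666 bp at Top1mt, -136 bp at Srrm3, and -153 bp at Nabp2, all upstream. It lay downstream at Cln6 (855 bp), Twf2 (417 bp), and Ccdc110 (337 bp). The peaks over Gm45844, Ccdc88c, Top1mt, and Nabp2 overlapped peaks of both histone marks in all 20 histone lists. Those over Cln6, Ccdc110, and Srrm3 overlapped none, and that over Twf2 overlapped H3K27ac in 1 list. Strong CTCF sites with near-identical cores thus occurred at promoters with and without both marks.

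Read counts were not part of the lists, and library depth is unknown. The H3K4me3 lists held 12925 to 14452 peaks. Intervals given for shares of peaks or promoters are 95% Wilson intervals and cover counting error only. A limit of the histone lists bears on every absence reported here. The longest listed peak was 8843 to 9200 bp in the H3K4me3 lists and 8769 to 8973 bp in the H3K27ac lists, and peaks of 10 kb or more were absent from all 20 lists. Promoters with the shortest and the longest peaks were the ones least often listed throughout. Among promoters with shared CTCF whose longest H3K27ac peak was under 1 kb, 9.52% (of 63) had a peak in all 10 lists. At 1 to 2 kb this share was 86.3% (of 322), at 2 to 4 kb 97.3% (of 1219), and at 4 to 6 kb 92.6% (of 538). At 6 to 8 kb it was 78.0% (of 268), and at 8 kb or more 26.3% (of 95). For H3K4me3 the shares in the same order were 14.0% (of 57), 92.9% (of 323), 99.4% (of 1649), 99.1% (of 450), 97.9% (of 95), and 45.0% (of 20). An absent peak at a promoter with such short or long peaks is therefore not read as the absence of the mark, and why peaks were absent from single lists was not tested.

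CTCF peaks at promoters were found in both CTCF lists somewhat more often than peaks elsewhere. Of 3818 promoter peaks at 0 h, 94.9% (94.2 to 95.6%) overlapped a peak at 24 h, against 91.8% (91.5 to 92.1%) of peaks elsewhere. Of 4900 promoter peaks at 24 h, 75.7% (74.5 to 76.9%) were present at 0 h, against 73.0% (72.6 to 73.5%) elsewhere. In this comparison the deposited score of each peak was used only as a rank within its list. Members had a median score percentile of 60.3 at 0 h and 70.0 at 24 h, and shared peaks away from promoters 53.2 and 62.7. The 194 promoter peaks found at 0 h only had a median percentile of 11.3. The ranks of the members at the 2 times were alike (Spearman's rho 0.84 across 3624 peaks, which share 1 library per time). The corresponding rho was 0.81 across the other shared peaks. These values describe what the selection used and carry no test.

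The highest ranks included places with high scores for all 3 antibodies. The 6 members with the highest mean percentile lay at Gm21738, Gm10800, Gm10801, Rapgef1, Acbd4, and Gm45844. The predicted genes Gm21738 and Gm10800 had a CTCF score of 3100 at both times, and Gm10801 had 1279 and 2195. Over the same places the H3K4me3 score was 3100 in all 10 lists at Gm21738, in 9 at Gm10800, and between 1419 and 2155 at Gm10801. The H3K27ac score was 3100 in 10 lists at Gm21738 and in 5 at Gm10800, and it was 1068 to 2082 at Gm10801. A score of 3100 or more was given to 3 to 13 peaks per list. None of these 3 members held the CTCF core. Rapgef1, which encodes a guanine nucleotide exchange factor for Rap GTPases, scored 945 and 1270 for CTCF, 1377 to 1837 for H3K4me3, and at most 676 for H3K27ac. Acbd4, an acyl-CoA binding protein, scored 796 and 1521 with H3K4me3 at 464 to 662 and H3K27ac at 111 to 229.

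Members gathered close to the TSS and more often before it than after it. Of 3624 members, 1889 (52.1%, 50.5 to 53.7%) covered a TSS, and the median distance from peak centre to TSS was 399 bp. The centre lay upstream in 59.0% (57.4 to 60.6%). By class, 33.5% lay within 200 bp of the TSS, 37.8% more than 200 bp upstream, and 28.7% more than 200 bp downstream. The fullest 100 bp bin, with 420 members, was the one just upstream of the TSS, and the bin just downstream held 293. The centre fell outside genes in 39.0%, in an intron in 39.0%, in a UTR in 14.6%, and in a coding exon in 7.42%. Among shared peaks elsewhere, 48.3% were outside genes, 47.5% in introns, 2.44% in UTRs, and 1.73% in coding exons. The rule itself placed members near annotated starts, so these annotation shares describe the selection. TSSs of more than 1 gene lay within reach of 307 members (8.47%).

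**Figure D1:**
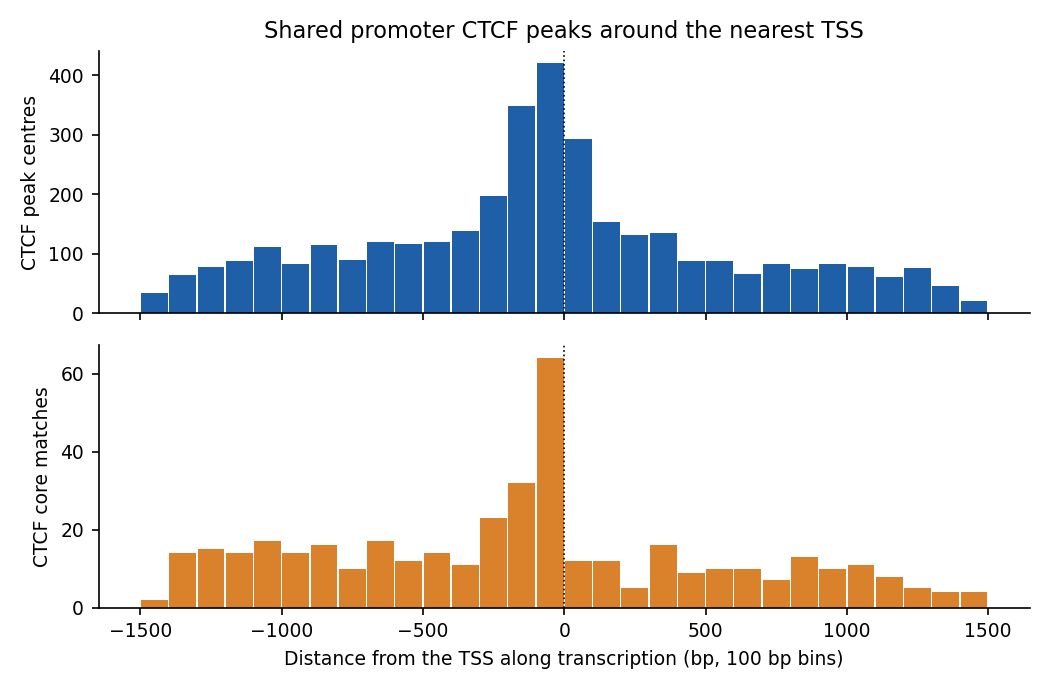
Number of shared promoter CTCF peak centres (top) and of CTCF core matches inside them (bottom) by distance from the nearest TSS, in bins of 100 bp, with negative distances upstream of the TSS. Both counts are highest in the bin just upstream of the TSS, with 420 centres and 64 core matches, and the core count falls to 12 in the bin just downstream.

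The CTCF core was less frequent in promoter peaks than in shared peaks elsewhere. An exact match was held by 437 members (12.1%, 11.0 to 13.2%) and by 21.6% (21.1 to 22.1%) of the other shared peaks. With 1 mismatch allowed, the shares were 55.4% (53.7 to 57.0%) and 75.7% (75.2 to 76.2%). Intervals of the same length moved by 2 kb to either side of the members held an exact match in 0.579% and a match with at most 1 mismatch in 11.0%. Members were longer than the other shared peaks, with a median of 871 bp against 820 bp at 0 h. In the central 200 bases alone the exact core was present in 7.67% and 15.0%. Within the members the share rose with score, from 5.63% in the lowest of 4 equal classes of 0 h percentile through 8.72% and 16.0% to 17.9% in the highest class. It was 2.44% in 1190 promoter peaks found at 24 h only and 1.55% (3 of 194) in those found at 0 h only. Within 1 kb of the TSS, an exact core was found at 1.66% of all protein-coding promoters, at 8.12% of those with shared CTCF, and at 0.550% of those without CTCF.

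Core matches lay close to the peak centre, and their strand differed with position. Among 423 members with a single match, 69.0% had it within 100 bp of the centre. The match lay on the strand of transcription in 54.6% (49.8 to 59.3%). Upstream of the TSS this was 60.9% (173 of 284, 55.1 to 66.4%), and downstream it was 41.7% (58 of 139, 33.9 to 50.0%). The intervals of the upstream and downstream shares do not overlap. The bin of 100 bp just upstream of the TSS held 64 core matches and that just downstream held 12, a steeper step than for the peak centres themselves, as seen in the plot of distances.

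Most members lay in chromatin with both marks, and a smaller class lay in chromatin with neither. Peaks of H3K4me3 and of H3K27ac overlapped 2050 members (56.6%, 54.9 to 58.2%) in all 20 histone lists, against 2.60% (2.42 to 2.80%) of shared CTCF peaks away from promoters. Neither mark in any list was found over 919 members (25.4%, 24.0 to 26.8%) and over 85.3% of the others. H3K4me3 in all 10 lists with H3K27ac in none was found at 76 members. The reverse, the pattern of an enhancer, was found at 15 members (0.414%) and at 1.52% of the shared peaks elsewhere. Per list, H3K4me3 overlapped 69.5% ± 0.369 of members (SD, n = 10 lists) and 5.29% ± 0.356 of the other shared peaks, and H3K27ac overlapped 64.6% ± 0.304 and 8.57% ± 0.245. Both differences had the same direction in 10 of 10 lists (exact sign-flip permutation test over lists, two-sided, adjusted p = 0.0027 over 29 comparisons). This is the smallest adjusted value those 10 lists gave, and since the same promoters are counted in every list it measures the spread between lists only. The rule placed members near a TSS and the other peaks away from one, and both marks are found at promoters. The contrast therefore describes the selection, and the p-value lends it no support.

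The classes with both marks and with neither differed in position and in the core. Members with both marks covered a TSS in 63.7% (61.6 to 65.7%) and had a median distance of 270 bp. Members with neither mark covered one in 31.4% (28.5 to 34.5%), and their median distance was 762 bp. The exact core was held by 8.49% (7.36 to 9.77%) of members with both marks and by 20.5% (17.97 to 23.2%) of members with neither, close to the 21.6% of shared peaks away from promoters. The CTCF ranks of the classes were close, with a median percentile of 61.2 and 58.5 at 0 h and 72.1 and 66.4 at 24 h. The centre of a member lay inside an H3K4me3 peak in 64.7% ± 0.540 (n = 10 lists) and within 250 bp of the edge of one in 12.7% ± 0.598. For H3K27ac the values were 59.4% ± 0.338 and 12.2% ± 0.695.

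Promoters with shared CTCF carried both marks far more often than promoters without CTCF. A promoter was counted as marked when a histone peak lay within 1 kb of its TSS. H3K4me3 was present at 82.8% ± 0.231 of the 3055 promoters with shared CTCF (n = 10 lists, 82.5 to 83.1%) and at 34.4% ± 0.133 of the 17451 without (34.3 to 34.6%). The difference was 48.4 ± 0.119 percentage points. H3K27ac was present at 76.2% ± 0.532 (75.2 to 77.1%) and 31.98% ± 0.160 (31.7 to 32.3%), a difference of 44.2 ± 0.423 points. The ranges of the lists did not overlap for either mark. Within 2 kb either side of the TSS, a window of 4001 bp, H3K4me3 peaks covered 2119 ± 33.6 bp with shared CTCF and 877 ± 15.7 bp without, and H3K27ac peaks covered 1990 ± 19.9 and 833 ± 10.7 bp. All 4 differences were found in 10 of 10 lists (adjusted p = 0.0027, sign-flip test as above). High shares were not particular to shared CTCF. With CTCF at 24 h only, H3K4me3 was present at 84.7% and H3K27ac at 80.1% of promoters. With CTCF at 0 h only the shares were 78.0% and 73.3%.

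**Figure D2:**
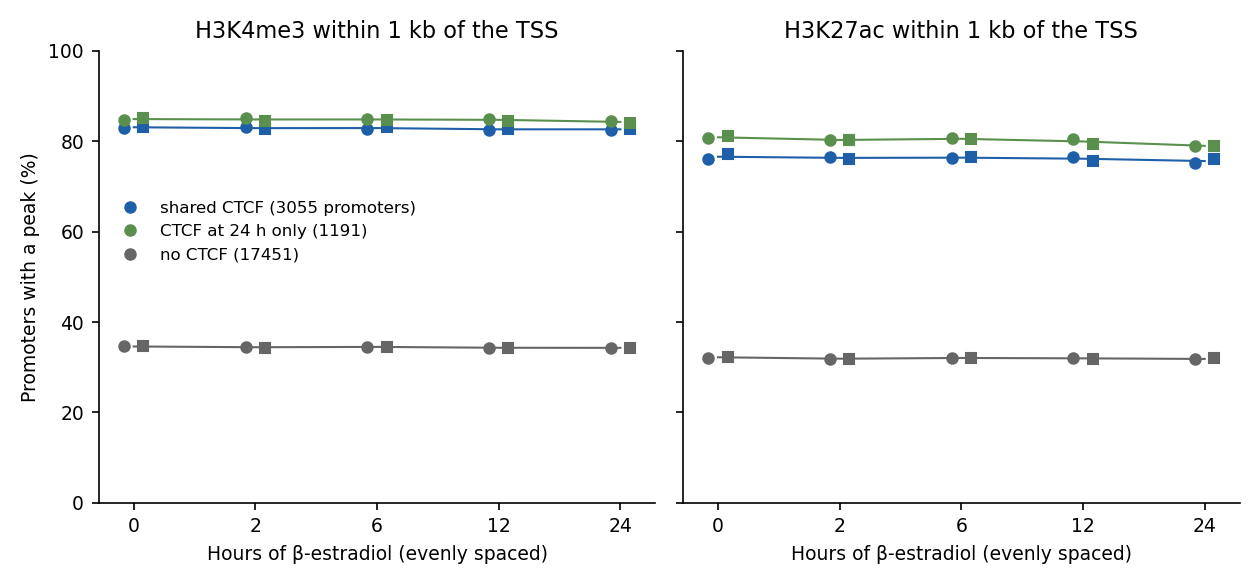
Share of promoters (%) with an H3K4me3 peak (left) or an H3K27ac peak (right) within 1 kb of the TSS, by hours of β-estradiol on an evenly spaced axis. Circles are replicate 1, squares replicate 2, and lines join the means of the 2 replicates. Promoters with shared CTCF (blue) stay between 82.5% and 83.1% for H3K4me3 and between 75.2% and 77.1% for H3K27ac. Promoters without CTCF (grey) stay near 34.4% and 31.98%. Promoters with CTCF at 24 h only (green) lie higher, with means of 84.7% and 80.1%.

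Part of this contrast moved with CpG content, a feature of most housekeeping promoters. The observed-to-expected CpG ratio within 1 kb of the TSS was at least 0.6 at 53.4% of promoters with shared CTCF and at 29.6% of promoters without CTCF. Among promoters at or above this ratio, H3K4me3 was present at 95.6% with shared CTCF and 66.6% without, a difference of 29.0 ± 0.0844 points (n = 10 lists). Below it the shares were 68.2% and 20.9%, a difference of 47.3 ± 0.318 points. For H3K27ac the differences were 26.3 ± 0.551 and 42.9 ± 0.387 points. Each held in 10 of 10 lists with adjusted p = 0.0027.

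Among promoters that already had H3K4me3, the listed peaks of both marks were similar with and without CTCF under the main settings. Only presence and covered length of peaks were measured, not the amount of a mark. H3K4me3 was present in all 10 lists at 2470 promoters with shared CTCF (80.9%) and at 5817 without CTCF (33.3%). H3K27ac was listed in all 10 lists at 87.6% of both groups, and in none at 2.96% (73) and 3.18% (185). The mean covered length of H3K4me3 was 2579 ± 41.95 and 2574 ± 47.2 bp, a difference of 4.86 ± 5.72 bp that was positive in 7 of 10 lists (adjusted p = 0.0349). For H3K27ac the difference was 9.97 ± 11.3 bp, positive in 8 of 10 lists (adjusted p = 0.0189). Both changed sign under other settings, to -123 and -105 bp when only CTCF peaks above the median score were kept. The 73 promoters with shared CTCF and H3K27ac in no list had a median longest H3K4me3 peak of 4867 bp, against 2937 bp at the 2163 with H3K27ac in all lists, so the length limit given above touches this class.

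The position of CTCF went with the shape of the H3K4me3 domain. Among promoters with H3K4me3 in all lists, the reach of the peak over the TSS was measured in each direction as the median over promoters. Without CTCF (5817 promoters) H3K4me3 reached 965 ± 21.2 bp upstream and 1578 ± 43.1 bp downstream (n = 10 lists). With the CTCF centre within 200 bp of the TSS (801 promoters) it reached 749 ± 22.0 bp upstream, 217 ± 11.7 bp less in each list on average and less in 10 of 10 lists. With CTCF more than 200 bp upstream (949 promoters) it reached 1106 ± 29.2 bp upstream, 141 ± 9.97 bp more and more in 10 of 10 lists. Both differences had adjusted p = 0.0027 (sign-flip test as above). With CTCF downstream (720 promoters) the upstream reach was 966 ± 28.0 bp, a difference of 0.20 ± 12.96 bp (adjusted p = 0.969, from -20.5 to 25.5 bp over the lists), and the downstream reach was 69.6 ± 19.5 bp longer (10 of 10 lists, adjusted p = 0.0027).

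H3K27ac showed the same order upstream, at 862 ± 20.98 bp with CTCF at the TSS, 1089 ± 18.03 bp without CTCF, and 1190 ± 30.0 bp with CTCF upstream. Unlike H3K4me3, it also reached farther upstream with CTCF downstream, at 1134 ± 19.3 bp, a difference of 44.9 ± 9.11 bp (10 of 10 lists, adjusted p = 0.0027). The H3K4me3 order was present in subclasses of promoters. Where no divergent protein-coding TSS lay within 1 kb, H3K4me3 reached 698 ± 22.8 bp upstream with CTCF at the TSS (718 promoters), 868 ± 20.6 bp without CTCF (4754), and 1021 ± 26.2 bp with CTCF upstream (794). At a CpG ratio of at least 0.6 the values were 863, 1133, and 1241 bp, and below it 596, 759, and 903 bp. At divergent promoters the order was another, with 1694 ± 29.6 bp at 83 promoters with CTCF at the TSS, 1617 ± 37.8 bp at 1063 without CTCF, and 1718 ± 30.6 bp at 155 with CTCF upstream. These subclass values were added after the main values were seen and were not tested.

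**Figure D3:**
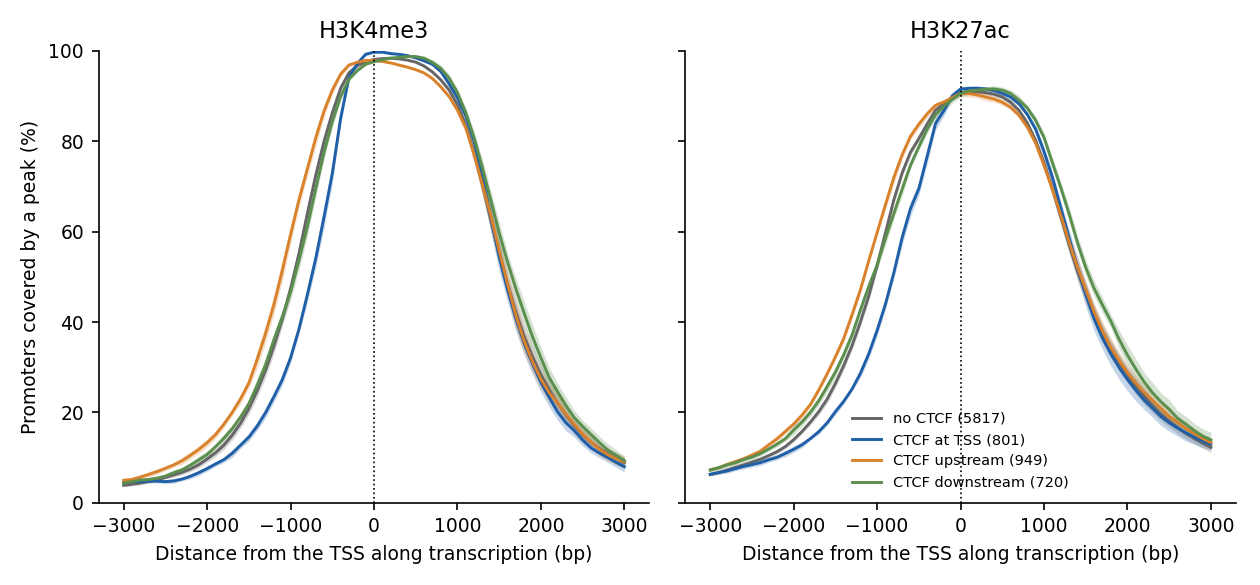
Share of promoters (%) covered by an H3K4me3 (left) or H3K27ac (right) peak at each distance from the TSS along the direction of transcription, for promoters with H3K4me3 in all 10 lists. Lines are means of 10 lists, shading is 1 SD, and numbers are promoters. Upstream of the TSS the blue line (CTCF at the TSS) falls first and the orange line (CTCF upstream) last, with median H3K4me3 reaches of 749 and 1106 bp against 965 bp without CTCF.

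Shared CTCF was found at 14.0% (13.5 to 14.4%) of all protein-coding promoters and at 26.3% of those with H3K4me3 in all lists, and gene groups are read against both. Promoters of CTCF and cohesin genes were the richest group, with 11 of 18 (61.1%, 38.6 to 79.7%) and 11 of the 15 that had H3K4me3 in all lists. They were Ctcf itself, the cohesin ring subunits Smc1a and Smc3, the subunits Stag1 and Stag2, the loader Nipbl, the regulators Pds5a and Pds5b, the acetyltransferase Esco1, and the promoter-binding factors Yy1 and Zfp143. The CTCF percentile at 0 h and 24 h was 99.2 and 99.5 at Stag1, 98.6 and 95.2 at Esco1, 97.9 and 97.2 at Pds5b, 93.3 and 96.3 at Ctcf, and 90.4 and 87.2 at Smc3. It was lower at Zfp143 (1.82 and 44.05) and at Yy1 (15.0 and 4.61). All 11 had H3K4me3 in 10 lists and 10 had H3K27ac in 10 lists. The exception was Yy1, whose H3K27ac peak of 8137 bp was listed once, so the length limit touches it.

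Groups of housekeeping genes lay above the share over all genes and near the share over marked promoters. Shared CTCF was at 31 of 83 cytosolic ribosomal protein genes (37.3%, 27.7 to 48.1%), 25 of 78 mitochondrial ribosomal protein genes (32.1%, 22.7 to 43.0%), 12 of 39 DNA replication genes (30.8%), 10 of 35 tRNA synthetase genes (28.6%), and 11 of 39 proteasome subunit genes (28.2%). Of those with H3K4me3 in all lists the shares were 36.5%, 32.5%, 32.4%, 29.4%, and 30.6%. Of 365 zinc finger genes named Zfp, 58 had it (15.9%), 21.2% of those with H3K4me3.

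Gene clusters differed from each other in the share over all their genes. Of 1134 olfactory receptor genes 8 had shared CTCF (0.705%, 0.358 to 1.39%), and of 39 Hox genes 2 had it, Hoxc5 and Hoxc10. The clustered protocadherins, in which CTCF is known to act in promoter choice, had it at 9 of 57 promoters (15.8%, 8.54 to 27.4%), and H3K4me3 was in all lists at none of the 57. Histone genes of the Hist1 cluster had it at 12 of 54 (22.2%), and CTCF at 24 h only at another 22. Among genes with H3K4me3 in all lists, it lay at 12 of 47 Hist1 genes (25.5%), 1 of 5 Hox genes, and 0 of 3 olfactory receptor genes. The share over all such promoters was 26.3%. The clusters thus also differed in how many genes carried H3K4me3, and the differences are not read as particular to CTCF. By chromosome the share ran from 19.2% on chromosome 19 to 6.65% on X, among chromosomes other than Y.

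**Figure D4:**
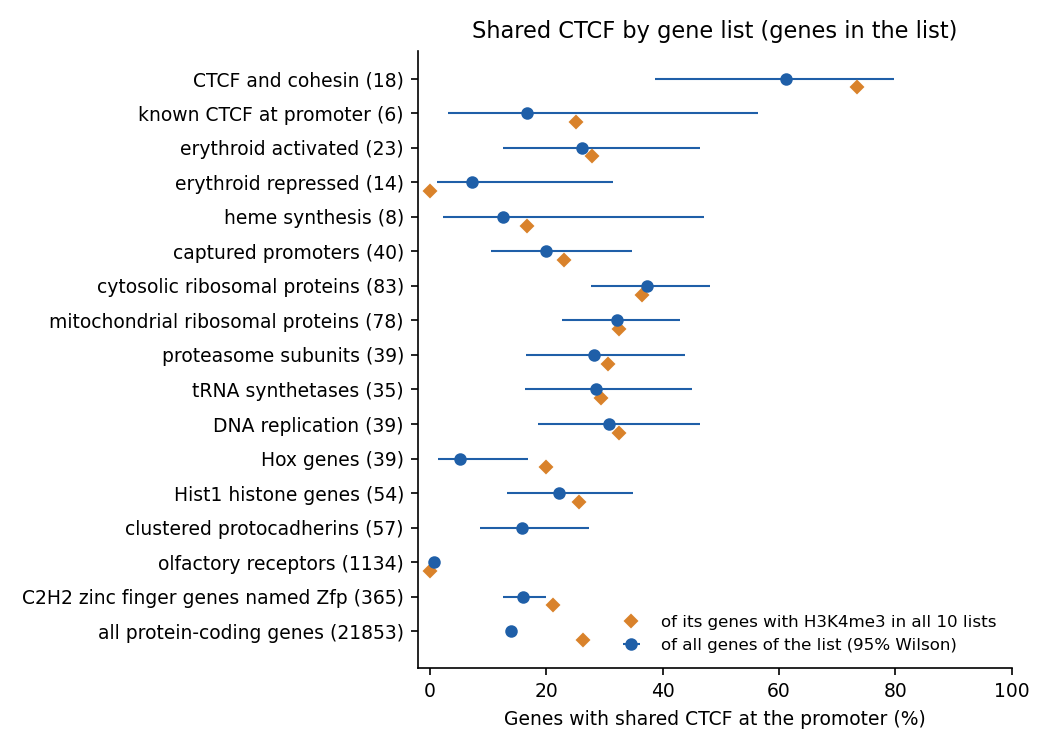
Share of genes (%) with shared CTCF within 1 kb of the TSS, by gene list, with the number of genes in each list in parentheses. Blue points with bars are the share of all genes of the list with its 95% Wilson interval, and orange diamonds the share of its genes with H3K4me3 in all 10 lists (none existed for the protocadherins). CTCF and cohesin genes stand highest at 61.1%, and olfactory receptors lowest at 0.705%.

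Genes of the erythroid program had shared CTCF at shares whose intervals held the share over all genes. It lay at 6 of 23 genes known to be activated by GATA1 (26.1%, 12.5 to 46.5%), at 1 of 14 repressed ones (7.14%, 1.27 to 31.5%), and at 1 of 8 heme synthesis genes (12.5%, 2.24 to 47.1%). Of those with H3K4me3 in all lists it lay at 5 of 18 (27.8%), at 0 of 8, and at 1 of 6 (16.7%), against 26.3% over all such promoters. For the 0 of 8, a rough upper limit of 3 counts over 8 genes is 37.5%, which is not a Wilson limit. The activated genes included Klf1, the erythroid Krüppel-like factor, Sptb, encoding erythroid β-spectrin, Slc25a37, the mitochondrial iron importer mitoferrin, Gfi1b, a repressor needed for erythropoiesis, and Bcl2l1, encoding the survival factor BCL-XL. At Klf1 CTCF lay within the gene, with its centre 1275 bp downstream of the TSS and percentiles of 98.6 and 93.3. At Bcl2l1 the percentile was 92.5 and 99.5, and at Slc25a37 26.8 and 45.7. The repressed gene was Kit, encoding the SCF receptor (51.4 and 70.3), and the heme gene Ppox, encoding protoporphyrinogen oxidase (95.9 and 94.9). Ank1, encoding erythroid ankyrin, had a member near another of its starts (99.8 and 86.1).

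The marks at these erythroid promoters did not pass the test between 0 h and 24 h. H3K27ac at Slc25a37 covered 2201 and 2365 bp before treatment, then 2028 and 2537 (2 h), 2852 and 2634 (6 h), 2664 and 2776 (12 h), and 2684 and 2793 bp (24 h). The 24 h values lay above the 0 h values, with a log2 difference of 0.24 ± 0.10 (SE, limma, adjusted p = 0.37). At Klf1 H3K27ac filled the window of 4001 bp in every list, so a change could not show there. H3K4me3 at Klf1 covered 3092 and 3202 bp at 0 h and 3295 and 3203 bp at 24 h (log2 difference 0.04 ± 0.04, adjusted p = 0.88). At Gfi1b and Kit no list held H3K27ac, while their longest H3K4me3 peaks were 8617 and 8839 bp, and H3K4me3 was listed at Gfi1b in 9 lists and at Kit in 8. H3K4me3 peaks of 8 kb or more were among those often absent from single lists.

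Of 6 genes chosen for CTCF reported at their promoters, Trp53, encoding the tumor suppressor p53, had a shared peak, with its centre 787 bp upstream of the TSS. H3K4me3 filled its window in all 10 lists, with a longest peak of 7481 bp, and H3K27ac was listed in none. Of the promoters that the study captured with dCas9 to map enhancer contacts, 40 were examined here, and 8 had shared CTCF (20%, 10.5 to 34.8%), among them Tmem44, Kit, Slc25a37, Il9r, encoding the interleukin-9 receptor, Spns2, a sphingosine-1-phosphate transporter, and Dmtn, encoding the membrane skeleton protein dematin. Dmtn had 2 members and no peak of either mark in any list. The study chose those 40 in these cells, so their share is not independent of these samples.

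The contrast between promoters with and without CTCF did not change detectably with time. The difference in H3K4me3 share fell with hours with Spearman's rho of -0.46 over 10 lists (permutation test of 100000 resamples, adjusted p = 0.255 over 4 trends; Pearson's r -0.51, permutation adjusted p = 0.209). For the H3K27ac share rho was -0.49 (permutation adjusted p = 0.255; r -0.57, adjusted p = 0.209). For covered length rho was -0.07 for H3K4me3 (permutation adjusted p = 0.86) and 0.57 for H3K27ac (permutation adjusted p = 0.255), with r of -0.02 and 0.49. Without the 2 lists at 24 h, r was -0.59, -0.25, -0.33, and 0.71 in the same order, shares first, with exact permutation p of 0.118, 0.533, 0.408, and 0.0464. The H3K27ac share at promoters with shared CTCF was 76.6% ± 0.787 (n = 2) at 0 h and 75.6% ± 0.532 at 24 h, a gap near the spread between replicates. An exact permutation test of 2 lists against 2 cannot give p below 0.333.

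Each promoter was fitted with limma after adding 200 bp to the covered length and taking log2, using every promoter window that had a peak in at least 2 lists. At an adjusted p under 0.05, 4 of 2577 promoters with shared CTCF passed for H3K4me3 and 26 of 2443 for H3K27ac. Over all windows, 0.28% (28 of 10007) passed for H3K4me3 and 1.59% (153 of 9602) for H3K27ac, so the promoters with shared CTCF, at 0.155% (0.0604 to 0.398%) and 1.06% (0.727 to 1.55%), lay at or below that background. At unadjusted p under 0.05 the counts were 199 and 293. Of the 26 H3K27ac calls, 15 were longer and 11 shorter at 24 h, but this balance turned to 6 longer and 23 shorter without 24 h replicate 1 and to 13 and 32 without 24 h replicate 2. Only 11 of the 26 were among the 25 calls made without 0 h replicate 2, and 10 of the 26 held whichever list was left out, among them Tmpo, which could be refitted in 8 of the 10 cases. The median log2 difference over the 2443 was 0.02, as over all windows (0.02). At 13 of the 26 no peak was listed at one of the times, and 5 of these 13 had a listed peak of 6 kb or longer. With all windows that had such a peak left out, 19 were called. Where no peak was listed at one of the times, the size of the log2 difference depends on the 200 bp added. Over refits that included 50 and 1000 bp in its place, the difference ran from 2.11 to 6.07 at Tmem44. For H3K4me3 at Hoxc5 it ran from 2.30 to 6.32. The SE does not include that choice.

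H3K27ac was listed after 0 h but not at 0 h at several promoters with shared CTCF, among them the 5 with the largest difference. Tmem44 (ENSMUSG00000022537, TSS at chr16:30550578), one of the captured promoters, encodes a transmembrane protein and has CTCF over its TSS. Its H3K27ac covered 0 and 0 bp before treatment, then 3626 and 4001 (2 h), 3223 and 3141 (6 h), 3704 and 3582 (12 h), and 3462 and 3173 bp (24 h). The 0 h lists stood apart from all 8 later lists, with a log2 difference of 4.14 ± 0.0732 (SE, limma adjusted p = 1.3e-06), while H3K4me3 stayed between 2634 and 2926 bp in all 10 lists. Its longest H3K27ac peak was 5697 bp, in the class of 4 to 6 kb of which 92.6% were listed throughout.

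Sh3bp5 (ENSMUSG00000021892, TSS at chr14:31436065) encodes a binding partner of the tyrosine kinase BTK and of JNK. Its H3K27ac covered 0 and 0 bp before treatment, then 856 and 612 (2 h), 883 and 913 (6 h), 986 and 913 (12 h), and 828 and 748 bp (24 h). The later lists were all above the 0 h lists (2.30 ± 0.170, adjusted p = 0.0015), and the call held whichever list was left out. No peak there was longer than 986 bp, in the class under 1 kb that was rarely listed throughout. Olfr67 is an olfactory receptor gene that lies 22.2 kb from the start of the adult β-globin gene Hbb-bt. Its H3K27ac covered 0 and 0 bp before treatment, then 1112 and 967 (2 h), 687 and 867 (6 h), 1026 and 1230 (12 h), and 546 and 1218 bp (24 h) (2.36 ± 0.307, adjusted p = 0.018), and H3K4me3 was in no list. Without 0 h replicate 1 or 2 the adjusted p was 0.0732 and 0.0886 (limma), so that call ended.

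Grk2, a kinase that desensitizes G protein-coupled receptors, and Tmem50a, a small membrane protein gene, also had H3K27ac at 24 h and none at 0 h. Grk2 covered 0 bp in both 0 h lists and 2369 to 2771 bp in the later 8 (3.80 ± 0.0914, adjusted p = 6e-06). Tmem50a covered 0 bp at 0 h and 2 h and 3034 to 4001 bp from 6 h (4.39 ± 0.135, adjusted p = 2.2e-05). Their longest peaks were 7689 and 7971 bp, in the class of 6 to 8 kb that was less often listed throughout, so a missing peak at 0 h there does not show that the mark was missing. The calls at Tmem44, Grk2, and Tmem50a held whichever list was left out.

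The 5 promoters with the largest called decrease in listed H3K27ac length divided in the same way. Cxcl3, a neutrophil-attracting chemokine, covered 1660 and 1540 bp before treatment, then 2048 and 1428 (2 h), 1653 and 1818 (6 h), 1415 and 1109 (12 h), and 0 and 0 bp (24 h) (-3.17 ± 0.185, adjusted p = 0.00046). Pafah2, a platelet-activating factor acetylhydrolase, covered 1084 and 1317 bp before treatment, then 1244 and 545 (2 h), 585 and 856 (6 h), 1510 and 1514 (12 h), and 0 and 0 bp (24 h) (-2.80 ± 0.323, adjusted p = 0.012). At both the 24 h lists stood apart from all others, and the longest peaks were 2048 and 1514 bp. The Cxcl3 call held whichever list was left out, while that at Pafah2 ended without 0 h replicate 2 or 24 h replicate 1 (limma adjusted p = 0.0715 and 0.0612). Rnps1, a splicing factor, Rec8, the meiotic cohesin subunit, and Tmpo, encoding the lamina-associated protein LAP2, had listed H3K27ac peaks of up to 7889, 7641, and 8104 bp and none at 24 h. Rnps1 and Rec8 were listed in all 8 earlier lists, and Tmpo in the 0 h lists only. H3K4me3 at the 3 stayed between 2232 and 3817 bp in all lists. Their longest H3K27ac peaks fell in the classes of 6 kb or longer that were less often listed throughout. A missing peak at 24 h there does not show that the mark was missing.

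**Figure D5:**
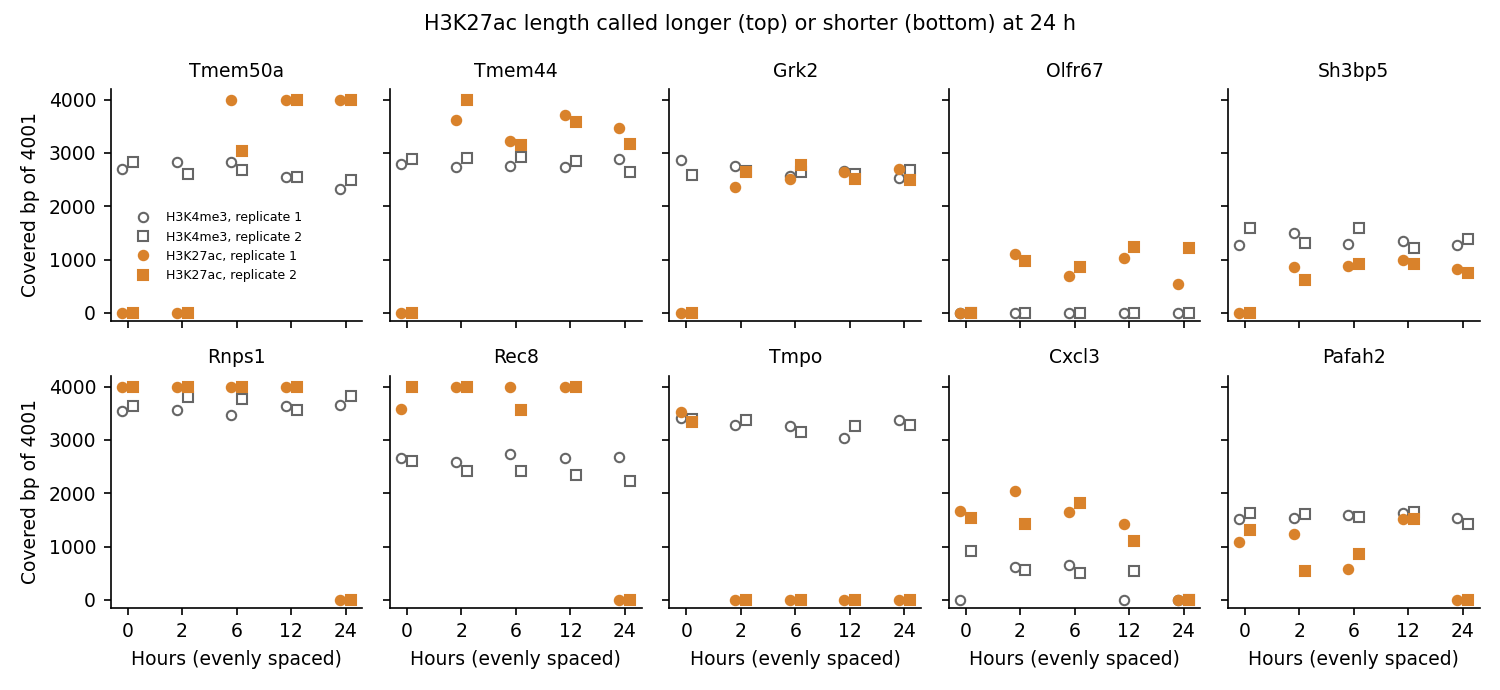
Covered bp of the 4001 bp promoter window in each list for the 10 promoters with shared CTCF that had the largest called H3K27ac difference, longer at 24 h in the top row and shorter in the bottom row, by hours of β-estradiol on an evenly spaced axis. Filled orange points are H3K27ac and open grey points H3K4me3, circles replicate 1 and squares replicate 2. At Tmem44 and Grk2 H3K27ac is 0 in both 0 h lists and above 2300 bp in all later ones, while H3K4me3 is level.

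Smaller calls were seen where peaks were listed in all 10 lists, and these were named after their values were seen. H3K27ac at Erfe, which encodes erythroferrone, the erythroid hormone that lowers hepcidin, covered 1095 and 1239 bp before treatment, then 1305 and 1186 (2 h), 1289 and 1352 (6 h), 1779 and 1412 (12 h), and 2672 and 2356 bp (24 h). The 24 h lists lay above all others (0.99 ± 0.127, adjusted p = 0.017), with a CTCF centre 29 bp upstream of the TSS. Slc7a7, an amino acid transporter, went from 1362 and 1459 to 2218 and 2396 bp, with 2241 and 2171 bp at 6 h but 1616 and 1673 bp at 12 h (0.64 ± 0.0899, adjusted p = 0.027), and Avl9 from 1734 and 1547 to 2965 and 2794 bp (0.74 ± 0.121, adjusted p = 0.047). Tmem67, a gene of the primary cilium, went from 3333 and 3401 bp at 0 h to 992 and 1035 bp at 24 h (-1.56 ± 0.104, adjusted p = 0.00082), but stood at 3254 and 3150 bp at 6 h, between 894 and 1048 bp at 2 h and 985 and 812 bp at 12 h. The Tmem67 call held whichever list was left out. That at Erfe ended without either 0 h list or 24 h replicate 1 (limma adjusted p = 0.0745, 0.056, and 0.0892), and those at Slc7a7 and Avl9 ended without any single list of 0, 6, 12, or 24 h (adjusted p = 0.0502 to 0.105 and 0.0901 to 0.193).

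For H3K4me3, 2 promoters with shared CTCF were called longer and 2 shorter, but this split was not stable. It was 6 and 0 without 0 h replicate 1, 9 and 0 without 0 h replicate 2, and 2 and 6 without either 2 h list. Tbc1d10b, a Rab GTPase-activating protein gene, covered 2652 and 2484 bp before treatment, then 3681 and 3628 (2 h), 3694 and 3678 (6 h), 2691 and 2406 (12 h), and 3747 and 3749 bp (24 h) (0.51 ± 0.0507, adjusted p = 0.01). The 12 h lists lay with the 0 h lists, and the call ended without 0 h replicate 2 or either 24 h list (limma adjusted p = 0.0522, 0.0691, and 0.063). The predicted gene 4930451I11Rik covered 539 to 833 bp through 12 h and 0 bp in both 24 h lists (-1.94 ± 0.189, adjusted p = 0.0095), and ended as a call without either 0 h list (limma adjusted p = 0.0747 and 0.0547). Hoxc5 had no listed H3K4me3 at 0 h and 3881 to 4001 bp later (4.37 ± 0.0425, adjusted p = 3.2e-08), with a longest peak of 8184 bp, in the class of 8 kb or more that was often absent from single lists. This call held whichever list was left out. Prcp, a carboxypeptidase gene, fell by 0.07 ± 0.00938 (adjusted p = 0.041), from 4001 bp in both 0 h lists to 3763 and 3823 bp, and was called in only 1 of 10 fits that left out a list (highest limma adjusted p of those 0.211).

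Some CTCF peaks changed rank between the single lists at 0 h and 24 h. The percentile rose most at AI413582 (9.97 to 97.7), Mfsd3 (3.99 to 87.6), Tpm1 (17.1 to 99.4), which encodes a tropomyosin, and Abhd14a (0.815 to 82.2). It fell most at Plscr2 (56.9 to 0.309), a phospholipid scramblase gene, Lrrk1 (73.8 to 18.9), Efnb1 (57.8 to 4.34), encoding ephrin B1, and Ppp1r18 (52.9 to 3.40). None of these 8 held the exact CTCF core. Across members the change had a median of 6.01 percentile points and quartiles of -1.66 and 18.2. With 1 list per time, these values have no error. Just inside the distance limit were the peaks at Aox1 and Ffar1, 1000 bp from the TSS, and Cfap20, 999 bp, and just outside those at Snx21, Lrrc42, and Parp16, each 1001 bp away. Their 0 h percentiles were 98.9, 39.7, and 40.6 inside and 32.4, 62.1, and 96.0 outside.

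Short motifs of other factors were counted within 1 kb of the TSS on both strands, as exact words, none of which contains another. The YY1 word AAGATGGCG was found at 7.20% (6.34 to 8.17%) of promoters with shared CTCF, 3.54% (3.27 to 3.82%) without CTCF, and 4.31% of all. The ETS word ACTTCCGG was found at 13.5% (12.3 to 14.7%), 7.46% (7.07 to 7.85%), and 8.63% in the same order. At a CpG ratio of at least 0.6 the shares with and without CTCF were 9.88% (8.52 to 11.4%) and 7.49% (6.81 to 8.24%) for YY1, and 14.6% (12.97 to 16.4%) and 12.4% (11.5 to 13.3%) for ETS. The NRF1 word CGCATGCGC was found at 5.20%, 3.36%, and 3.70%, and the E-box CACGTG at 33.3%, 26.0%, and 27.5%. At high CpG ratio the shares with and without CTCF were 6.56% and 6.12% for NRF1, and 34.2% and 34.3% for the E-box. The intervals of the groups overlapped there for both words, as they did for ETS. The ZNF143 word ACTACAATT was found at 1.41%, 1.51%, and 1.59%. The GATA word AGATAA was less frequent with shared CTCF, at 51.1% (49.3 to 52.9%) against 59.5% (58.8 to 60.3%) without and 57.7% of all, and at high CpG ratio it was found at 47.8% and 45.9%.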

How the data were processed

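ChIP-seq peak lists of CTCF, H3K4me3, and H3K27ac were analyzed (22 lists in 12 groups, grouped by the antibody and hours in their titles). Per the study's methods, the authors aligned reads to mm10 with Bowtie2, kept uniquely mapped reads, and called peaks per library with MACS without its model step. For CTCF the notes give Bowtie2 and mm10 alone. The MACS version, control, and threshold are not given in the sources used here. Peak scores were used as deposited by the authors, only to rank or filter peaks, since they do not compare between libraries. The lists hold no reads, so depth is unknown. The sample labels name a human build, but the positions matched GENCODE M21 (GRCm38), and they name another H3K4me3 antibody than the study's methods.

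Promoters were 1 TSS per protein-coding gene (best APPRIS level, longest transcript). Covered length was tested with limma 3.58.1 (R 4.3.3) by lmFit and eBayes with a trend, on the log2 scale after adding 200 bp, in windows with a peak in at least 2 lists, as 24 h minus 0 h in a fit with a mean for each of 5 times, with Benjamini-Hochberg adjustment over all windows. Trends used permutation tests of 100000 resamples (Python 3.11.15, SciPy 1.17.1), and the exact sign-flip tests over lists were chosen after seeing the data. Scripts were tested on simulated data. p-values measure the spread between lists, from 2 experiments per time. Sequences were read from the RefSeq GRCm38 assembly with pysam 0.24.0, and motifs were sought on both strands.

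Named were the 6 members of highest mean percentile, the 4 with the largest rise and the 4 with the largest fall, up to 5 called promoters per mark and direction, genes of the short lists (1 of which is not reported here), and the 3 members nearest each side of the distance limit. Members and gene lists were chosen with earlier results of these data known. Alternatives covered score filters, list sizes, CTCF distance, transcript starts, window, pseudocount, peak filter, CpG class, long peaks, and leaving out lists.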

Additional observations from a re-analysis of the deposited data

How the results depend on the processing

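Promoters with shared CTCF carried both marks more often under all alternatives run. The difference in H3K4me3 share (48.4 points) and H3K27ac share (44.2) was 38.2 and 38.8 with only histone peaks from the pooled median score up, 43.4 and 39.7 with CTCF peaks so filtered, 49.9 and 45.7 with CTCF within 0.5 kb, 45.3 and 41.2 within 2 kb, 46.2 and 42.2 over every transcript start, 47.5 and 43.2 for a peak over the TSS, 29.0 and 26.3 at a CpG ratio of at least 0.6, and 47.3 and 42.9 below it. With equal numbers of peaks the first was 48.2. Leaving out single lists gave 48.4 (lowest 48.3851, highest 48.4242) and 44.1 to 44.3.

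The length differences among promoters with H3K4me3 in all lists changed sign. In the same order of marks they were -42.7 and -51.2 bp with the median score filter, -123 and -105 with it on CTCF, -40.5 and -29.7 within 0.5 kb, 51.3 and 52.3 within 2 kb, -9.50 and -4.06 over every transcript start, -12.7 and -15.4 in a window of 1 kb either side, and 15.7 and 58.2 in one of 5 kb. Without single lists they were 3.77 to 5.94 and 7.31 to 13.3. The difference in H3K27ac share there (0.24 points) was -1.05, -0.315, and -0.383 with the score filter, the CTCF filter, and 2 kb, and 0.162 to 0.361 without single lists.

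Of 82 trend alternatives 1 passed, H3K27ac length in the window of 5 kb either side (rho 0.89, permutation adjusted p = 0.00668). It was -0.34 in 1 kb, and the H3K4me3 share trend was 0.62 with equal numbers of peaks. Without single lists rho ran from -0.62 to -0.29, -0.75 to -0.32, -0.21 to 0.23, and 0.48 to 0.75 for the H3K4me3 share, H3K27ac share, H3K4me3 length, and H3K27ac length.

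Called H3K4me3 promoters (4) were 16 with 5 kb, 11 with the 0 h and 24 h lists alone, 20 with the score filter, 7 with equal numbers, 7 with CTCF within 2 kb, 2 without windows holding a peak of 6 kb or longer, and 16 over consensus regions. Called H3K27ac promoters (26) were 16 with 1 kb, 46 with 5 kb, 43 with the 0 h and 24 h lists, 14 with the CTCF filter, 40 within 2 kb, and 65 over consensus regions. Leaving out a list gave 4 to 9 and 25 to 45. The H3K4me3 count was 9 without 0 h replicate 2, 8 without either 2 h list, and 7 without 12 h or 24 h replicate 2, and the H3K27ac count was 45 without 24 h replicate 2. Calls split as 35 longer and 11 shorter for H3K27ac with 5 kb and 13 and 21 with the score filter, and as 3 and 17 for H3K4me3 with that filter, which kept 0 of the 4 calls and 10 of the 26. The score filter turned Tbc1d10b to -3.79 (adjusted p = 0.445, limma). It also ended the calls at Tmem44, Grk2, Erfe, and Prcp. Equal numbers of peaks ended those at Sh3bp5, Olfr67, Tmem50a, Pafah2, Rec8, Rhoc, Avl9, and 4930451I11Rik. Of the 26 H3K27ac calls 4 held under every refit that could be made, and of the 4 H3K4me3 calls 1. None of these had every refit, because some settings left their windows out. There were 20 refits at C1rl and Cxcl3, 19 at Rnps1 and Hoxc5, and 16 at Tmpo, against 21 at windows never left out. Rnps1, Tmpo, and Hoxc5 had peaks of 6 kb or longer, so the setting without such windows could not test them. Why calls ended was not tested.

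Lists with the same replicate number did not deviate together (correlations -0.0949 to 0.138 for H3K4me3, 1 of 10 above 0.1, and -0.0575 to 0.071 for H3K27ac). With a replicate block 3 and 21 promoters were called, and the trends had adjusted p of 0.253 (both shares and H3K27ac length) and 0.868 by permutation.

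The share of members with the core was 55.4% with 1 mismatch, 7.67% in the centre, 16.4% with the CTCF filter (1929 members), and 13.6% within 2 kb. Depth is unknown, so lists may differ by depth as well as by the mark.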

Other observations

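Promoters with CTCF at 24 h only, which most comparisons above leave aside, carried the marks at least as often as those with shared CTCF. H3K4me3 was present at 84.7% ± 0.319 (SD, n = 10 lists) of these 1191 promoters, 1.88 ± 0.305 points above shared CTCF, and H3K27ac at 80.1% ± 0.734, 3.92 ± 0.447 points above. Among promoters with H3K4me3 in all lists they were covered over 176 ± 9.03 bp more by H3K4me3 and 173 ± 19.2 bp more by H3K27ac. Each of the 4 differences was found in 10 of 10 lists (exact sign-flip permutation test, adjusted p = 0.0027). Their marks were already present in the 0 h lists, with H3K27ac at 80.9% ± 0.356 (n = 2) before treatment and 79.0% ± 0.0594 at 24 h. A divergent protein-coding TSS lay within 1 kb at 19.7% (17.6 to 22.1%) of them, against 12.4% (11.3 to 13.6%) with shared CTCF and 7.03% (6.66 to 7.41%) without CTCF, and 61.3% had a CpG ratio of at least 0.6. Of the windows tested, 18 of 996 were called for H3K27ac (1.81%, 1.15 to 2.84%), 15 longer and 3 shorter at 24 h, and 3 of 1025 for H3K4me3 (0.293%, 0.0996 to 0.857%), all shorter, near the 1.59% and 0.28% over all windows. CTCF was listed once per time, so whether these sites were bound before 24 h cannot be told apart from a difference in depth or background between the 2 CTCF lists.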
